A study of Mus musculus with 32 samples.

Results

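Genes that mark the cells of blood vessels were followed across sciatic nerve transcriptomes of 4 mouse genotypes. The set held 31 listed genes, of which 21 mark endothelial cells, 6 mark pericytes and 4 mark vascular smooth muscle. All 31 were found by symbol among the 45706 genes of the table, and all 31 were among the 15403 genes with enough counts to be tested.

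The nerves came from mice aged 6 months and were profiled by mRNA sequencing in 32 libraries. The groups were wild type (WT, n = 7), Sipa1l2-/- (n = 9), C3-PMP22 (n = 8) and C3-PMP22 Sipa1l2-/- (n = 8, called the double mutant here). The C3-PMP22 strain bears a transgene of human PMP22 and models CMT1A, an inherited neuropathy in which an extra copy of PMP22 leads to loss of myelin. The study asked whether Sipa1l2, which belongs to a family of proteins that switch off Rap GTPases, modifies that disease. The labels state neither the strain background, nor the Sipa1l2 allele, nor what drives the transgene, and they list no treatment. Both sexes were used.

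Blood vessels of a nerve consist of an endothelial tube and the mural cells around it. Endothelial cells are held together by junction proteins such as Cdh5 (VE-cadherin), respond to VEGF and angiopoietin through receptor tyrosine kinases, and are kept in their identity by ETS and SOX transcription factors. Pericytes are embedded in the basement membrane of capillaries, whereas contractile smooth muscle wraps arterioles and arteries. In nerve, small endoneurial vessels form part of the blood-nerve barrier, and larger vessels run in the epineurium together with fat and connective tissue.

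Library totals lay between 11030976 and 16990990 counts. Sipa1l2 itself was counted at 65.2 to 121.7 CPM (counts scaled to library size, which makes libraries comparable) in WT, 55.0 to 138.4 CPM in the Sipa1l2-/- group, 57.7 to 133.2 CPM in C3-PMP22 and 43.6 to 148.6 CPM in the double mutant. The libraries labelled Sipa1l2-/- thus did not hold fewer Sipa1l2 counts, so the label is not checked by these counts, and a direction drawn below for a Sipa1l2-/- group rests on the label alone. The table lists mouse genes, so the human transgene has no row in it. C3-PMP22 7 and 8 are labelled female, yet their sex-linked genes went against that label in both libraries. The same libraries held the most transcript of the skeletal muscle list, at 189156.5 and 170822.6 CPM summed over its genes. The column headers carry animal numbers of 2 kinds, 19 plain numbers and 13 that begin with G; all 5 female double mutants have plain numbers and all 3 males have G numbers. The markers of myelinating Schwann cells were present in every library, with a summed level of 4856.8 to 29226.5 CPM. Within the double mutant this level was 4856.8 to 11093.3 CPM in the 5 females and 20345.5 to 24091.1 CPM in the 3 males.

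The level of each gene per length is given as CPM per kb of exon, averaged over the 32 libraries. On this scale the smooth muscle genes Tagln (transgelin, an actin-binding protein) and Acta2 (smooth muscle actin) stood highest, at 130.9 and 101.6 CPM per kb. The pericyte genes Rgs5, a regulator of G-protein signalling, and Mcam, an adhesion molecule also made by other vessel cells, followed at 52.8 and 52.4 CPM per kb. Cdh5 was the highest endothelial gene at 32.2 CPM per kb, ahead of the diaphragm protein Plvap at 29.8 CPM per kb and the adhesion molecule Pecam1 at 24.2 CPM per kb. The connexin Gja5, which is typical of arterial endothelium, and the calponin Cnn1, typical of contractile smooth muscle, stood lowest, at 1.77 and 2.10 CPM per kb. Neighbours in this order, such as Rgs5 and Mcam, lay within each other's range over libraries.

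**Figure D1:**
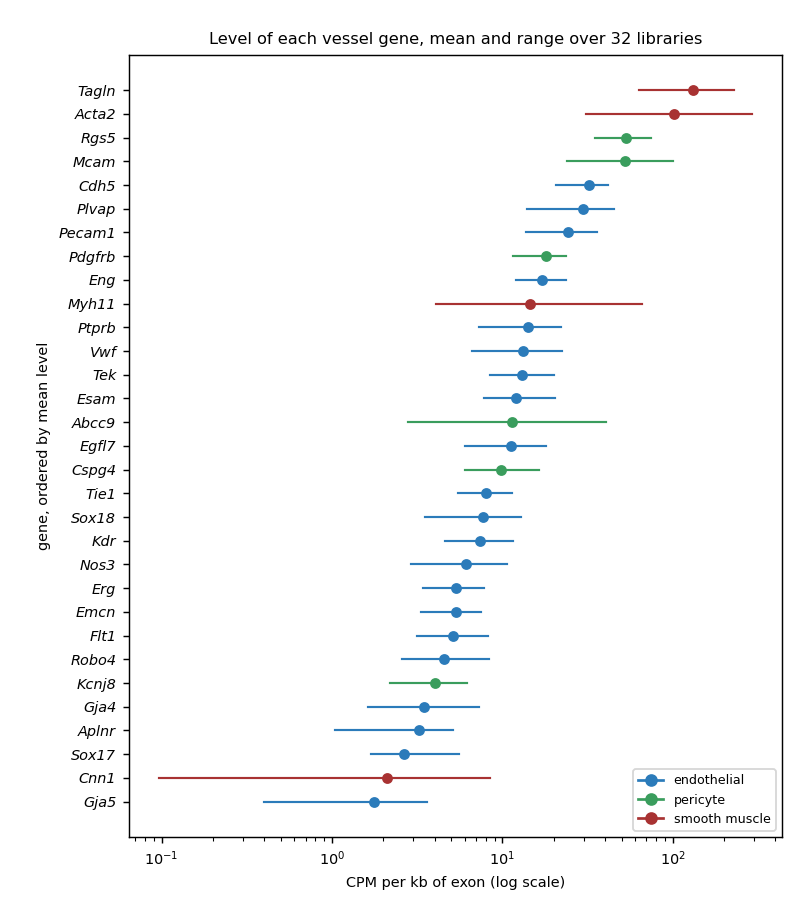
Level of each of the 31 vessel genes in CPM per kb of exon on a log axis, ordered by mean; points are means and lines the range over 32 libraries, coloured by subset. Tagln and Acta2 stand highest at 130.9 and 101.6 CPM per kb, and the line of Cnn1 is the longest.

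The genes differed in how evenly they were expressed from nerve to nerve, within subsets as well as between them. The highest library exceeded the lowest by 2.02-fold for Cdh5, by 2.14-fold for Rgs5 and by 2.05-fold for Pdgfrb, the PDGF receptor of pericytes. The same ratio was 87.8 for Cnn1, 16.3 for Myh11 (smooth muscle myosin heavy chain), 14.6 for the pericyte gene Abcc9 and 9.41 for Acta2. Among endothelial genes it was widest for Gja5, at 9.11-fold. Among WT nerves alone Myh11 ranged 14.6-fold, Cnn1 87.8-fold and Acta2 4.94-fold. Tagln was more even, with 3.61-fold over all libraries and 2.30-fold in WT.

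Single nerves tended to be high or low for many vessel genes at once. WT 4 held the highest level of 8 of the 21 endothelial genes and of 3 of the 4 smooth muscle genes, and was among the 8 highest libraries for 20 endothelial genes. C3-PMP22 7 held the lowest level of 7 endothelial genes and was among the 8 lowest for 20 of them, and C3-PMP22 8 and C3-PMP22 4 were among the 8 lowest for 18 each. C3-PMP22 5 was the least lowered of its genotype. It also held the least skeletal muscle transcript of its group (58.4 CPM) and the most adipocyte (8466.3 CPM) and erythrocyte transcript (6477.2 CPM), each summed over a marker list. It was below the mean of all libraries for 4 endothelial genes, against 10 to 21 genes in the other C3-PMP22 nerves.

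**Figure D2:**
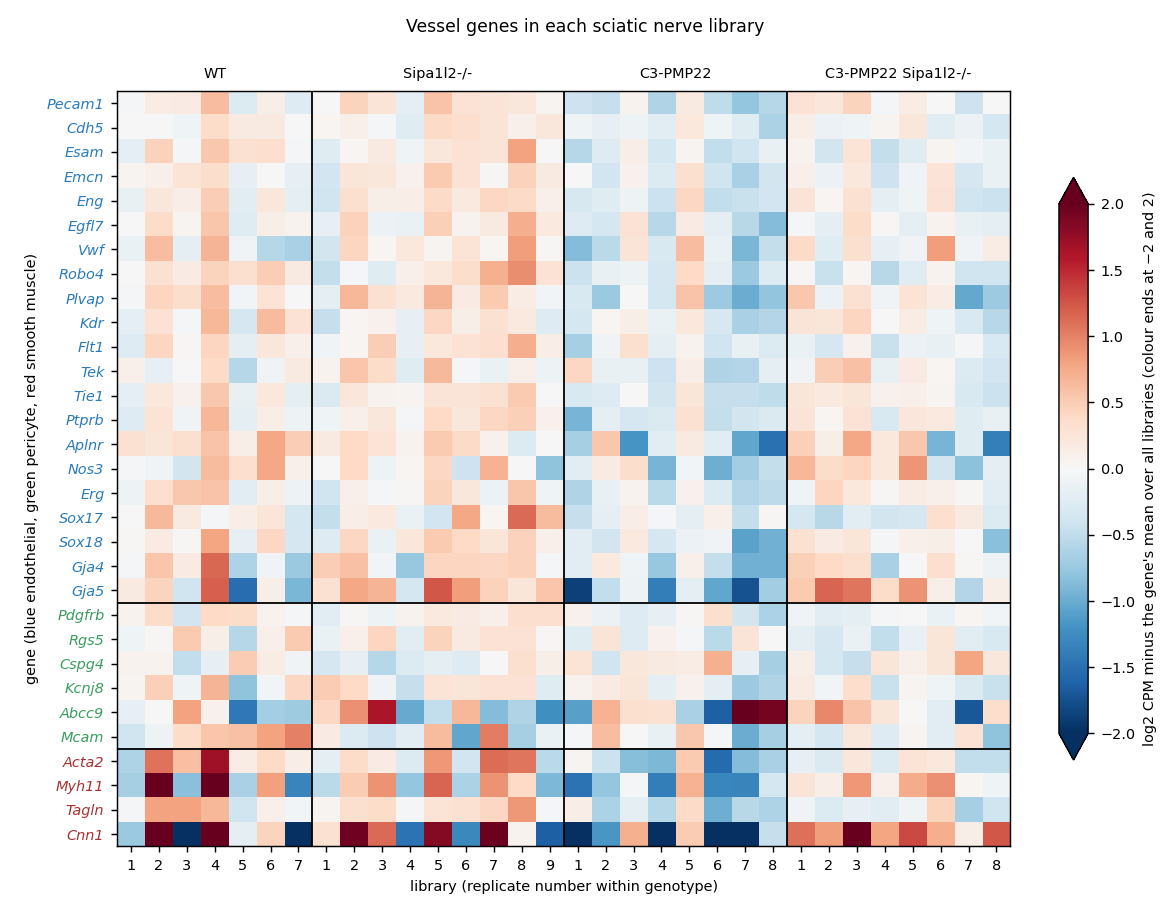
Log2 CPM of each vessel gene minus its mean over the 32 libraries; rows are genes in their 3 subsets and columns are libraries by genotype and replicate number. Endothelial rows are mostly blue in C3-PMP22 except in replicates 3 and 5, Cnn1 has strong colours in every genotype, and Abcc9 is high in C3-PMP22 7 and 8.

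The level of a whole subset in a nerve was described by the mean over its genes of log2 CPM, centred on all libraries. For the endothelial genes this mean ran from -0.69 to 0.18 in C3-PMP22 with a median of -0.41, from -0.17 to 0.58 in WT with a median of 0.06, from -0.15 to 0.44 in the Sipa1l2-/- group and from -0.33 to 0.32 in the double mutant. Within the double mutant it ran from -0.14 to 0.32 in the females with plain numbers. In the males with G numbers it ran from -0.33 to 0.06, and sex and number series cannot be told apart there. The smooth muscle mean had a median of -0.79 in C3-PMP22, -0.27 in WT, 0.60 in the Sipa1l2-/- group and 0.19 in the double mutant, and all groups overlapped. The pericyte means lay between -0.35 and 0.28 in every library, and the group medians between -0.04 and 0.12. That mean joins genes of opposite directions. In C3-PMP22 against WT, 4 of the 6 pericyte genes had a log2 fold change below 0, and the range was -0.51 to 0.85.

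**Figure D3:**
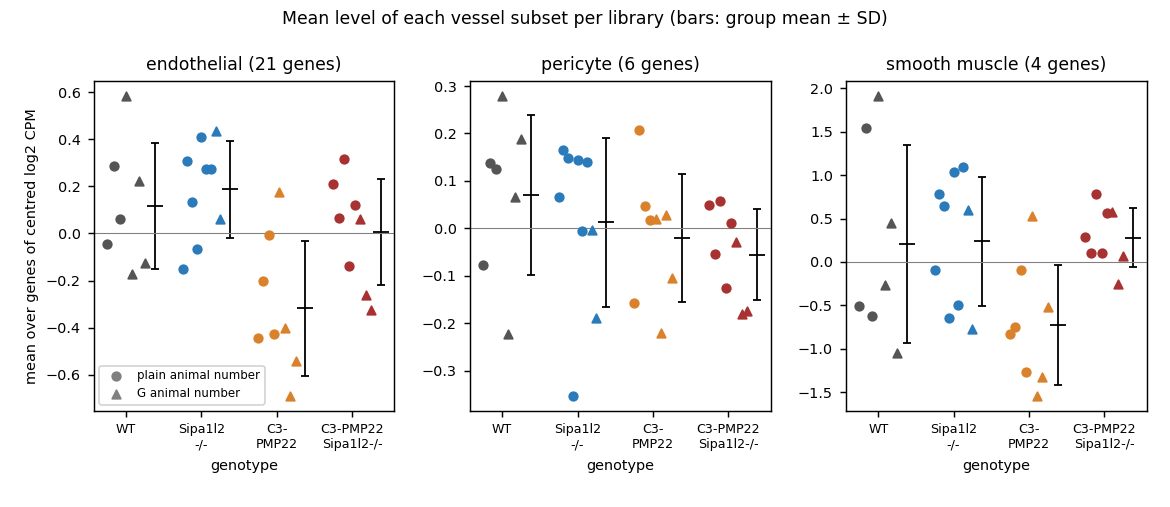
Mean over the genes of each subset of centred log2 CPM in each library, by genotype; circles are libraries with plain animal numbers, triangles those with G numbers, and bars the group mean ± SD. Most C3-PMP22 nerves lie below 0 in the endothelial and smooth muscle panels, and the groups overlap in all 3 panels.

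To ask what the transgene changes, both transgenic groups (16 libraries) were set against both other groups (16 libraries). This comparison was chosen with earlier results of these data known. Of the 31 vessel genes, 5 fell and 0 rose at an adjusted p under 0.05 by edgeR's quasi-likelihood test, adjusted over all 15403 genes; of all tested genes, 3.32% were called in either direction and 1.75% were called lower. The 5 were the endothelial genes Robo4, Esam and Flt1 and the smooth muscle genes Acta2 and Tagln, and no pericyte gene was called. The log2 fold change was below 0 for 29 of the 31 genes with a median of -0.28, against 44.9% of all tested genes and a median of 0.02. DESeq2's Wald test called 5.49% of all genes, 505 lower and 341 higher. Of the 31 it called 8 lower, namely the same 5 with Cdh5, Egfl7 and Plvap. The count depended on single libraries: without WT 2 or without WT 4 it was 2 (Robo4 and Tagln), and without C3-PMP22 5 it was 12. Over all genes, the calls were 512 with every library, 431 without WT 2, 393 without WT 4 and 576 without C3-PMP22 5. In whole tissue, fewer cells of a type and less RNA per cell cannot be told apart.

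**Figure D4:**
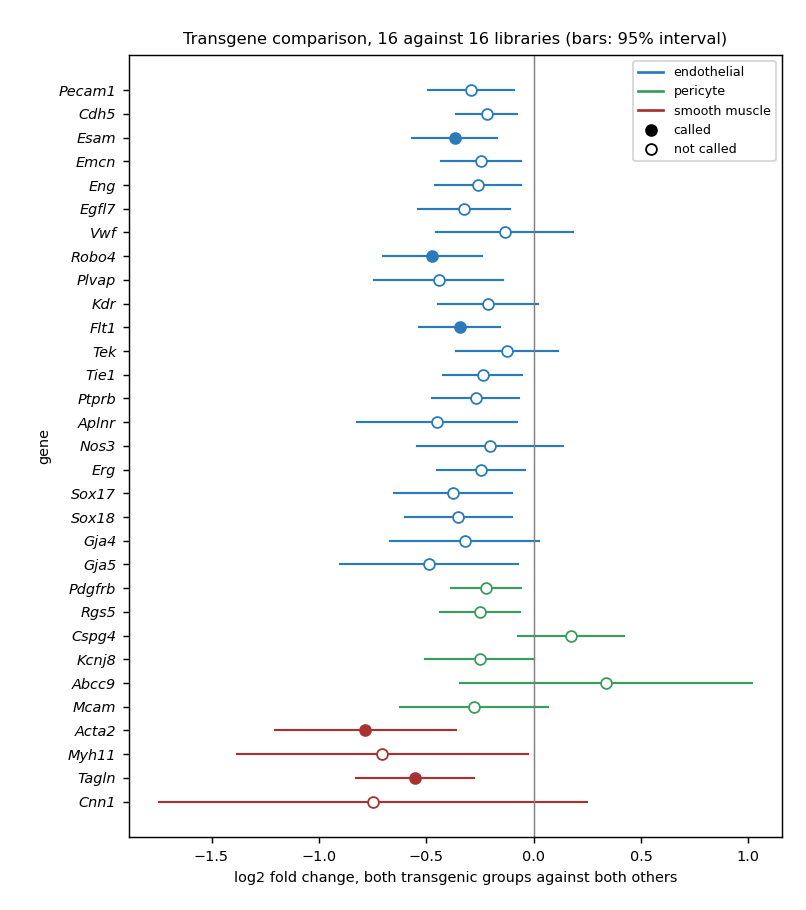
Log2 fold change of each vessel gene between both transgenic groups and both other groups, with its 95% interval (edgeR); filled points were called at an adjusted p under 0.05 over all tested genes. The points of 29 genes lie left of 0, those of Cspg4 and Abcc9 lie right of it, and the filled points are Esam, Robo4, Flt1, Acta2 and Tagln.

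Robo4, a roundabout receptor largely restricted to endothelium that stabilises vessels, was counted at 23.0, 28.6 and 32.4 CPM in WT (lowest, median and highest library) and at 16.5, 26.8 and 44.0 CPM in the Sipa1l2-/- group. In C3-PMP22 the same values were 13.7, 19.8 and 30.6 CPM, and in the double mutant 15.7, 18.5 and 24.3 CPM. The groups overlapped, but 15 of the 16 transgenic libraries lay below the median of the others, and the exception was C3-PMP22 5. The fall was -0.47 ± 0.11 (log2, SE), with an adjusted p of 0.0149 by edgeR.

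Esam, an adhesion molecule of endothelial tight junctions, was counted at 29.5, 41.3 and 48.6 CPM in WT and at 28.3, 37.96 and 58.4 CPM in the Sipa1l2-/- group. It stood at 22.4, 27.0 and 36.7 CPM in C3-PMP22 and at 23.9, 31.3 and 40.5 CPM in the double mutant. Of the 16 transgenic libraries, 15 lay below the median of the others and 8 below their lowest value. Esam fell by 0.37 ± 0.097 (log2, SE; edgeR adjusted p = 0.0293).

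Flt1, the VEGF receptor that binds VEGF-A tightly and signals weakly, was counted at 56.5, 72.4 and 90.9 CPM in WT and at 59.9, 77.7 and 111.2 CPM in the Sipa1l2-/- group. Its values were 42.6, 59.9 and 83.8 CPM in C3-PMP22 and 49.1, 61.3 and 71.4 CPM in the double mutant. Again 15 of 16 transgenic libraries were below the median of the others, and the ranges overlapped. Flt1 fell by 0.34 ± 0.092 (log2, SE; edgeR adjusted p = 0.0330). On GRCm38, with GENCODE M21, Flt1 lies on the minus strand at chr5:147561604-147726011, Robo4 on the plus strand at chr9:37401897-37415115 and Esam on the plus strand at chr9:37528078-37538319; none of the 3 shares exon positions with another gene.

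Erg is an ETS factor of endothelium, and ETS factors bind sites built around the letters GGAA, so the word AGGAAG was searched on both strands (as AGGAAG or CTTCCT) in the 250 bases before the start in RefSeq's promoters of GRCm38.p6. That table held promoters of 18 of the 31 genes, 22 promoters in all. The word stood in 9 of these 22 promoters, which belong to 8 genes, and in 29.5% of the 32851 promoters of the table; TATAAA (or TTTATA) stood in 2 of the 22 and in 12.4% of all promoters. The promoter of Flt1 (minus strand, chr5:147726012-147726261) is shown because it holds AGGAAG at 129 and 53 bases and TATAAA at 31 bases before the start, in capitals; of Robo4, 30 bases around its only AGGAAG are shown (plus strand, chr9:37401911-37401940), 49 bases before the RefSeq start. GENCODE starts Robo4 earlier, at chr9:37401897, so these 30 bases lie inside the gene by that annotation. A match is a description of the letters and not a bound site.
Flt1: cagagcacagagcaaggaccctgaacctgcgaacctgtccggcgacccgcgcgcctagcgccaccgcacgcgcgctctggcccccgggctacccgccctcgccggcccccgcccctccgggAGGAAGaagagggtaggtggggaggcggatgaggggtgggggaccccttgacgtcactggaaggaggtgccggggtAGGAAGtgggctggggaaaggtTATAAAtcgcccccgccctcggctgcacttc
Robo4: tgagggccaggcAGGAAGcatccgtttcct

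The other 18 endothelial genes were not called by edgeR, and the log2 fold change of each was below 0 over all libraries, while within the plain number series Kdr, Tek and Nos3 stood above 0, at 0.03, 0.0067 and 0.20. Of the surface and secreted proteins, Cdh5 was counted at 126.0, 134.3 and 172.8 CPM in WT, at 112.9, 144.0 and 175.0 CPM in the Sipa1l2-/- group, at 86.7, 121.9 and 154.6 CPM in C3-PMP22 and at 105.0, 125.3 and 156.6 CPM in the double mutant. Its log2 fold change was -0.22 ± 0.070 (SE; adjusted p = 0.0827), and 13 of 16 transgenic libraries lay below the median of the others. Vwf, the clotting protein stored in endothelial granules and the most counted endothelial gene, ranged from 128.9 to 324.2 CPM in WT, 157.6 to 359.7 CPM in the Sipa1l2-/- group, 107.2 to 310.3 CPM in C3-PMP22 and 171.9 to 361.1 CPM in the double mutant. Its medians, in the same order, were 185.1, 209.9, 154.7 and 208.8 CPM, and its log2 fold change was -0.13 with an interval from -0.45 to 0.18. Plvap, Egfl7 (a secreted vessel protein), Pecam1, Eng (a TGF-beta co-receptor) and Emcn (a sialomucin of capillary and venous endothelium) had log2 fold changes of -0.44, -0.33, -0.29, -0.26 and -0.25.

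None of the other receptors in the set passed the test apart from Robo4 and Flt1. Kdr, the main signalling receptor of VEGF, had a log2 fold change of -0.21 with an interval from -0.44 to 0.02, and Tek, the angiopoietin receptor, one of -0.12 from -0.36 to 0.11. Tie1 and Ptprb, the receptor and the phosphatase that act on Tek signalling, stood at -0.24 and -0.27, and the apelin receptor Aplnr at -0.45 ± 0.18 (SE; adjusted p = 0.188). Nos3, the endothelial nitric oxide synthase, stood at -0.20. The transcription factors Erg, Sox17 and Sox18 stood at -0.25, -0.38 and -0.35, and the connexins Gja4 and Gja5 at -0.32 and -0.49. None of these passed the test.

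Among the pericyte genes, Rgs5 was counted at 158.8, 251.8 and 339.4 CPM in WT, at a median of 267.3 and a highest value of 320.4 CPM in the Sipa1l2-/- group, at 162.5, 233.3 and 281.0 CPM in C3-PMP22 and at 167.2, 203.7 and 277.4 CPM in the double mutant. Pdgfrb was counted at 75.0, 102.8 and 128.7 CPM in WT, at 83.3, 104.6 and 123.2 CPM in the Sipa1l2-/- group, at 62.8, 88.9 and 122.4 CPM in C3-PMP22 and at 84.5, 93.7 and 100.5 CPM in the double mutant. Their log2 fold changes with the transgene were -0.25 ± 0.092 and -0.22 ± 0.080 (SE; adjusted p of 0.143 and 0.136), and the groups overlapped. Kcnj8 and Abcc9 encode the channel pore and the sulfonylurea receptor of the KATP channel of pericytes. The log2 fold change was -0.25 for Kcnj8 and 0.34 for Abcc9, with an interval for Abcc9 from -0.34 to 1.02, and neither was called. Abcc9, which skeletal muscle also expresses, reached 338.2 CPM in C3-PMP22 7, the library with the most muscle transcript, against a C3-PMP22 median of 94.3 CPM and a WT median of 67.6 CPM. Without C3-PMP22 7 and 8 its log2 fold change was 0.0049. The source of the Abcc9 transcript in these libraries was not tested. Cspg4 (the NG2 proteoglycan, also made by other cells of nerve) stood at 0.18 with an interval from -0.07 to 0.42, and Mcam at -0.28 over all libraries, but at 0.05 within the plain number series and -0.43 within the G series.

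The 4 contractile genes of smooth muscle had the largest log2 fold changes of the set, between -0.55 and -0.78. Their spread was unequal: Cnn1 and Myh11 varied most of all 31 genes in log2 CPM, while Tagln varied less than several endothelial genes. Acta2 was counted at 129.7, 261.2 and 641.0 CPM in WT, at 136.6, 221.9 and 428.9 CPM in the Sipa1l2-/- group, at 68.1, 118.0 and 284.5 CPM in C3-PMP22 and at 140.3, 170.5 and 238.6 CPM in the double mutant. WT 4 was the highest library and C3-PMP22 6 the lowest, and 14 of 16 transgenic libraries lay below the median of the others. Acta2 fell by 0.78 ± 0.21 (log2, SE; edgeR adjusted p = 0.0290).

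Tagln was counted at 188.3, 266.6 and 433.4 CPM in WT, at 240.3, 305.7 and 451.9 CPM in the Sipa1l2-/- group, at 125.1, 167.4 and 323.7 CPM in C3-PMP22 and at 155.9, 217.0 and 335.6 CPM in the double mutant. It fell by 0.55 ± 0.13 (log2, SE; edgeR adjusted p = 0.0174), with 14 of 16 transgenic libraries below the median of the others and 7 below their lowest value. The exons of Tagln (chr9:45929619-45936058, minus strand) overlap those of Gm48529 and Pcsk7 on the other strand, and the sources used here do not give the strand used in counting, so reads of these genes may be mixed; Acta2 (chr19:34241090-34255590, minus strand) has no such overlap.

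Neither Myh11 nor Cnn1 was called. Myh11 was counted at 34.3, 54.3 and 501.6 CPM in WT, at 46.0, 113.0 and 191.1 CPM in the Sipa1l2-/- group, at 30.8, 42.2 and 138.6 CPM in C3-PMP22 and at 80.6, 98.4 and 161.8 CPM in the double mutant. WT 2 and WT 4 stood far above the other WT nerves, and the WT median was below that of the double mutant although the WT mean of 171.3 CPM was above its mean of 114.9 CPM. The log2 fold change with the transgene was -0.71 ± 0.33 (SE; adjusted p = 0.269) for Myh11 and -0.75 ± 0.49 (SE; adjusted p = 0.445) for Cnn1.

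**Figure D5:**
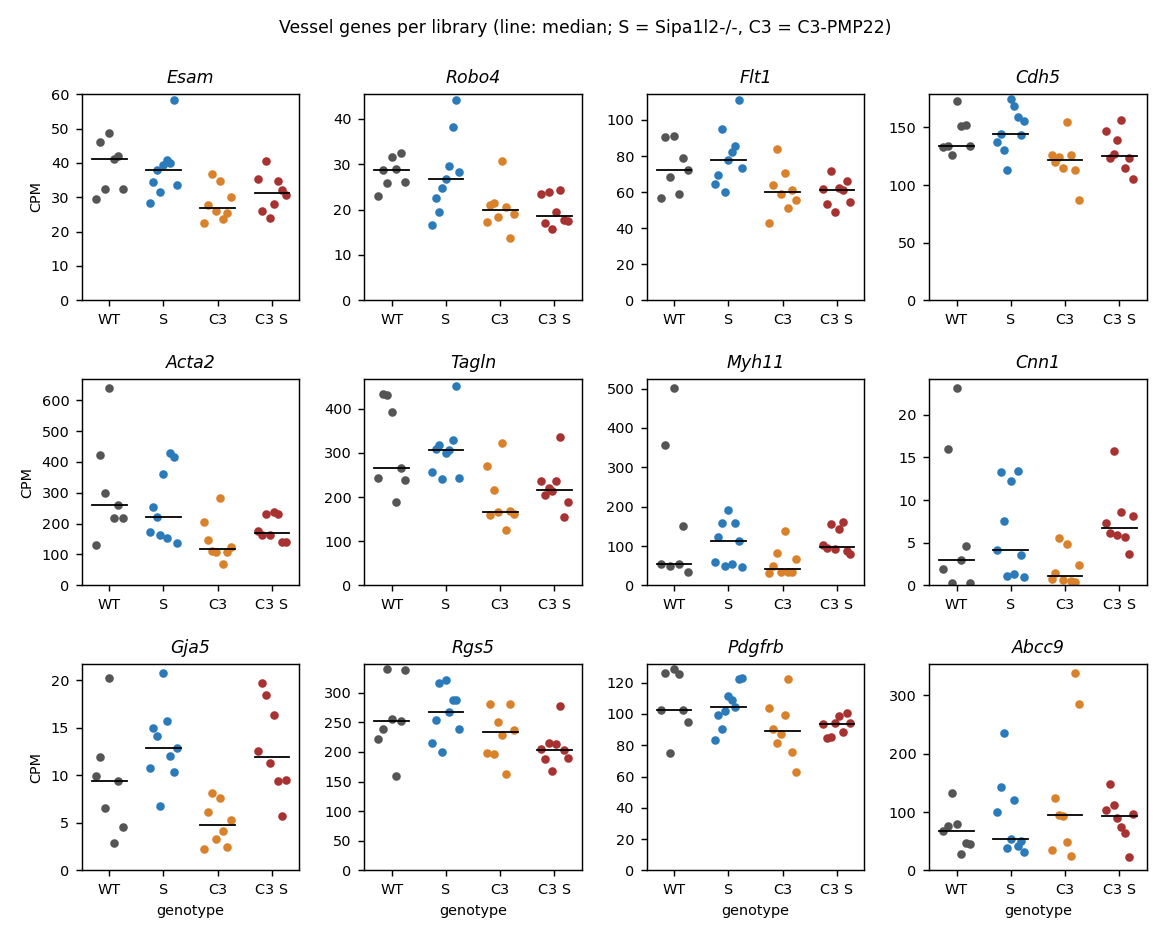
CPM of 12 vessel genes in each library by genotype on axes that start at 0, with the median as a line; S stands for Sipa1l2-/-, C3 for C3-PMP22 and C3 S for the double mutant. Esam, Robo4 and Flt1 have lower medians in both transgenic groups, Myh11 and Acta2 each have WT nerves far above the rest, and Gja5 is low in C3-PMP22 but not in the double mutant.

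The nerves also differed in the level of skeletal muscle, adipocyte and erythrocyte genes. Where these transcripts came from was not tested. The summed level of the 15 genes of the skeletal muscle list ran from 127.4 to 75182.9 CPM in WT with a median of 4329.9, from 20.8 to 104562.3 CPM in the Sipa1l2-/- group with a median of 3455.5, from 58.4 to 189156.5 CPM in C3-PMP22 with a median of 43971.1 and from 26.0 to 56720.2 CPM in the double mutant with a median of 37475.5. None of the 14 tested muscle genes was called, and 13 of them had a log2 fold change above 0. The summed level of the 8 adipocyte genes had medians of 6484.1 CPM in WT, 4319.5 CPM in the Sipa1l2-/- group, 3387.8 CPM in C3-PMP22 and 4101.3 CPM in the double mutant, and its range over all libraries was 1936.2 to 9869.0 CPM. The 5 erythrocyte genes ran from 175.0 to 6477.2 CPM and the 6 fibroblast genes from 4666.2 to 10142.5 CPM over all libraries, with 0 called in either list, and 0 of the 8 Schwann and 0 of the 8 adipocyte genes were called. With the muscle level as a covariate, Robo4 (-0.39) and Tagln (-0.56) were called, while Esam (-0.33, adjusted p = 0.0709), Flt1 (-0.33, adjusted p = 0.0605) and Acta2 (-0.70, adjusted p = 0.0697) were not. With the adipocyte level as a covariate all 5 were called, and Sox17 with them. Over all genes, the calls with the adipocyte covariate were 912, against 512 without it. Calls over all genes with the muscle covariate are not given here. How far vessels of muscle or fat in a dissected nerve take part in these differences was not tested.

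Within the 19 libraries with plain animal numbers, the log2 fold change with the transgene was -0.30 for Esam, -0.37 for Robo4, -0.29 for Flt1, -0.64 for Acta2 and -0.62 for Tagln, and Tagln alone was called. Within the 13 libraries with G numbers the values were -0.54, -0.73, -0.49, -1.05 and -0.61, and none was called. Of the 31 genes, 26 were below 0 in the plain series and 29 in the G series. Without C3-PMP22 7 and 8, the libraries that go against their labelled sex, the values were -0.38, -0.45, -0.35, -0.77 and -0.53, and Esam, Robo4 and Tagln were called. That fit used fewer libraries, and its calls over all genes are not given here.

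C3-PMP22 alone was then set against WT. None of the 31 vessel genes was called by edgeR, where 0.688% of all genes were. At an unadjusted p under 0.05, 18.1% of all genes passed in either direction, 1080 lower and 1709 higher. Of the 31 vessel genes, 20 were lower and 0 higher (15 endothelial, 2 pericyte and 3 smooth muscle genes). The log2 fold change was below 0 for 29 of 31 genes, against 42.7% of all genes, with a median of -0.40 over the endothelial, -0.21 over the pericyte and -1.34 over the smooth muscle genes, against 0.04 over all genes. The value nearest to a call was that of Acta2, at -1.20 ± 0.31 (SE; edgeR adjusted p = 0.0546), with 5 of 8 C3-PMP22 nerves below the lowest WT nerve and 8 of 8 below the WT mean. Tagln stood at -0.68 ± 0.20 (SE; adjusted p = 0.0915), Erg at -0.48 ± 0.15 (SE; adjusted p = 0.107) and Esam at -0.46 ± 0.14 (SE; adjusted p = 0.113). DESeq2 called 5 of the 31 lower, namely Esam, Erg, Acta2, Myh11 and Tagln, and 2.43% of all genes, 211 lower and 164 higher.

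The largest difference of the endothelial genes in this comparison, with Aplnr at -0.76, was that of Gja5, at -0.77 ± 0.30 (SE; edgeR adjusted p = 0.199). Robo4 at -0.49 had 7 of 8 C3-PMP22 nerves below the lowest WT nerve, the exception again being C3-PMP22 5. Without C3-PMP22 7 and 8 the values were -1.17 for Acta2, -0.62 for Tagln, -0.47 for Esam and -0.41 for Erg, and the median over the 31 genes was -0.28. The edgeR adjusted p-values of Acta2, Tagln, Esam and Erg in that fit were 0.221, 0.342, 0.291 and 0.398. When C3-PMP22 5 was left out, Pecam1, Plvap, Acta2 and Tagln were called lower by edgeR, while the calls over all genes went from 106 to 231.

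The double mutant was set against WT and against the Sipa1l2-/- group, which share the double mutant libraries. Against WT 0 of the 31 genes were called by edgeR, where 1.38% of all genes were, and 0 by DESeq2, where 3.24% were. At an unadjusted p under 0.05, 14.7% of all genes passed, 1319 lower and 952 higher. Of the 31 genes, 7 were lower and 0 higher, and these were Esam, Robo4, Flt1, Rgs5, Mcam, Acta2 and Tagln. Robo4 had the smallest p, with a log2 fold change of -0.49 ± 0.16 (SE; edgeR adjusted p = 0.130) and 8 of 8 double mutants below the WT mean. The median over the 31 genes was -0.15, and 25 were below 0. Within the plain series alone Tagln was called, and with only these groups in the fit Robo4 was called.

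Against the Sipa1l2-/- group 0 of the 31 were called by either tool, where edgeR called 0.721% and DESeq2 1.42% of all genes. At an unadjusted p under 0.05, 8.69% of all genes passed, 825 lower and 513 higher. Of the 31 genes, 7 were lower and 0 higher: Cdh5, Esam, Robo4, Flt1, Sox17, Rgs5 and Tagln. Flt1 stood at -0.41 ± 0.13 (SE; edgeR adjusted p = 0.167) and Robo4 at -0.46 ± 0.16 (SE; adjusted p = 0.255). The median over the 31 genes was -0.18.

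The double mutant was also compared with C3-PMP22, to ask what the Sipa1l2-/- label adds among transgenic mice. By edgeR 0 of the 31 genes were called and 0% of all genes. At an unadjusted p under 0.05, 8.07% of all genes passed, 431 higher and 812 lower in the double mutant. Of the 31 genes, 6 were higher and 0 lower (Pecam1, Tie1, Ptprb, Erg, Gja5 and Cnn1). Gja5 had the smallest p of the set: it was counted at 2.28, 4.74 and 8.12 CPM in C3-PMP22 and at 5.72, 11.9 and 19.7 CPM in the double mutant, where 7 of 8 nerves exceeded every C3-PMP22 nerve. Its log2 fold change was 1.24 with an interval from 0.64 to 1.85, and its adjusted p was 0.601 by edgeR; DESeq2 called it higher, as the only vessel gene among the 0.0714% of genes it called. WT nerves held 2.93, 9.41 and 20.2 CPM of Gja5 and the Sipa1l2-/- group 6.76, 12.9 and 20.8 CPM, so the low group was C3-PMP22. Within the double mutant, the 5 females with plain numbers held 11.3 to 19.7 CPM and the 3 males with G numbers 5.72 to 9.49 CPM, and sex and number series cannot be told apart there. Exons of Gja5 overlap those of Gpr89 on the other strand.

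Cnn1 was counted at 0.436, 1.05 and 5.59 CPM in C3-PMP22 and at 3.62, 6.71 and 15.8 CPM in the double mutant, against 0.263, 2.93 and 23.1 CPM in WT and 0.971, 4.15 and 13.5 CPM in the Sipa1l2-/- group. Its difference between double mutant and C3-PMP22 was 1.77 ± 0.72 (log2, SE; edgeR adjusted p = 0.606), within a gene whose WT nerves spread over its whole range. By contrast Robo4 and Flt1 differed little between the transgenic groups, at -0.0062 with an interval from -0.33 to 0.32 and at -0.03 with an interval from -0.29 to 0.24.

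Whether the transgene effect differs between the Sipa1l2 genotypes was tested by the interaction. By edgeR 0 of the 31 genes and 0% of all genes were called. At an unadjusted p under 0.05, 6.41% of all genes passed, 348 higher and 639 lower. Of the 31 genes, 2 were higher and 0 lower, Erg at 0.47 ± 0.20 and Myh11 at 1.53 ± 0.72 (log2, SE). DESeq2 called 0 of the 31 and 0.0195% of all genes. The median over the 31 genes was 0.23 against -0.06 over all genes. A transgene effect that differs between the Sipa1l2 genotypes was therefore not shown for any of the 31 genes. How far the double mutant stood from C3-PMP22 is a different comparison, given above. There edgeR called 0 of the 31 genes, and DESeq2 called Gja5.

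Between the Sipa1l2-/- group and WT, 0 of the 31 vessel genes and 0% of all genes were called, by edgeR and by DESeq2 alike. At an unadjusted p under 0.05 Gja5 was higher (0.68) and Mcam lower (-0.49), where 5.21% of all genes passed. For Cdh5 the log2 fold change was 0.05 with an interval from -0.15 to 0.26, for Robo4 -0.04 from -0.37 to 0.29, for Flt1 0.11 from -0.16 to 0.39 and for Acta2 -0.39 from -1.004 to 0.22.

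Other genes of vessels, listed apart from the 31, gave these counts in the transgene comparison. Over all tested genes 1.75% were called lower there. Of 22 further endothelial genes 3 fell and 0 rose: Adgrl4 (an adhesion receptor, -0.28 ± 0.071, adjusted p = 0.0218), Arhgef15 (a guanine nucleotide exchange factor of endothelium, -0.39 ± 0.098, adjusted p = 0.0214) and Gpr4 (a proton-sensing receptor, -0.42 ± 0.12, adjusted p = 0.0476; log2, SE, edgeR). Arhgef15 was counted at 17.6, 20.7 and 23.9 CPM in WT and at 10.6, 12.4 and 20.5 CPM in C3-PMP22. Of 17 tested further mural genes 5 fell and 0 rose, among them Myl9 (a myosin light chain, -0.46 ± 0.10, adjusted p = 0.00913), Itga8 (an integrin subunit, -0.96 ± 0.23, adjusted p = 0.0148) and Notch3 (the Notch receptor of mural cells, -0.53 ± 0.13, adjusted p = 0.0231); the others were Mylk, the kinase of myosin light chain, and Heyl, a target of Notch signalling. Myl9 was counted at 129.4, 156.7 and 253.0 CPM in WT and at 88.6, 100.6 and 154.1 CPM in C3-PMP22.

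In C3-PMP22 against WT, where 0.688% of all genes were called in either direction, 3 of the 17 further mural genes were called lower, Itga8 at -1.51 ± 0.34, Mylk at -0.97 ± 0.22 and Myl9 at -0.65 ± 0.15 (log2, SE; edgeR adjusted p of 0.0241, 0.0272 and 0.0310). Itga8 was counted at 6.28, 8.14 and 43.9 CPM in WT and at 3.05, 5.43 and 7.67 CPM in C3-PMP22, so the ranges overlapped. No further endothelial gene was called there, the nearest being Arhgef15 with an adjusted p of 0.0503.

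Of 19 tested vessel ligands and co-receptors, Vegfc, a ligand of lymphatic and blood endothelium, fell with the transgene by 0.43 ± 0.12 (log2, SE; edgeR adjusted p = 0.0386) and none rose. It was counted at 4.39, 6.57 and 8.25 CPM in WT, at 3.85, 5.75 and 7.13 CPM in the Sipa1l2-/- group, at 2.40, 3.71 and 6.47 CPM in C3-PMP22 and at 3.29, 5.01 and 5.91 CPM in the double mutant. Of 19 markers of arterial, capillary, venous, lymphatic and barrier endothelium 0 were called; the smallest p was that of Rgcc, a gene of capillary endothelium, at -0.37 ± 0.12 (SE; adjusted p = 0.0853). In the other comparisons 0 genes of these 4 lists were called by edgeR.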

How the data were processed

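Sciatic nerve mRNA of 32 mice was sequenced as paired reads after polyA selection, per the labels' protocols. The authors deposited expected counts, made with RSEM after Trim Galore and FastQC on GRCm38 (mm10), per the submitters' processing notes; the sources used here give no version, aligner, strand setting or annotation. The counts were whole numbers already, not scaled between libraries.

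Each sample's description names its column of the table by letter, which assigned the columns. The animal numbers differ between all columns. Some share the part before the hyphen, among them those of double mutants 2 to 5 and those of C3-PMP22 7 and 8. The labels do not say what that part stands for, and no fit included it, so these libraries may not be fully independent. Members, lists and the comparison of both transgenic groups with both others were chosen with earlier results of these data known. Low genes were removed with filterByExpr (10 counts at least, 15 in total, by genotype), and the rest scaled with TMM and fitted with edgeR 4.0.16 (quasi-likelihood, R 4.3.3) on all libraries with genotype and labelled sex; fold changes are log2, p-values were adjusted by Benjamini-Hochberg over all 15403 genes and called under 0.05. Levels are CPM on TMM library sizes; log2 CPM used a prior count of 2. Counting limits the precision of genes with few counts, and 95% intervals come from the fit. Exon lengths and overlaps are from GENCODE M21 and promoters from RefSeq. Values per group are given for every member called and, in each subset, for the uncalled member with the most counts and the one with the smallest p; values of Gja5, Cnn1 and Abcc9 were added after they were seen. From other lists, up to 3 called genes per comparison were named, otherwise the one with the smallest p; Heyl and Mylk were added as the rest of a count of 5. The test was also run on simulated counts with known changes, drawn independently for each gene and library. Those counts lack the tissue differences between nerves, so that run cannot vouch for the calls here. Alternatives were DESeq2 1.42.0, DESeq2's size factors, total counts, other filters, no sex term, sex from sex-linked genes, only the compared groups, the sample number as a block, muscle or adipocyte level or number series as a term, C3-PMP22 7 and 8 left out, and each library left out; fits within a number series were chosen after seeing the data.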

Additional observations from a re-analysis of the deposited data

Results flagged for a closer look

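Of 124 combinations of a vessel gene and a genotype, 12 held a library whose CPM stood apart from the rest of its group by Dixon's 95% criterion; at a chance rate of 1 in 20, 6.2 are expected. Sipa1l2-/- 8 was the highest of its group for Esam, at 58.4 CPM with the next at 40.7, and for Tagln, at 451.9 CPM with the next at 329.8. C3-PMP22 5 was the highest of its group for Eng, at 90.6 CPM with the next at 63.1, and for Robo4, at 30.6 CPM with the next at 21.5. Among double mutants, number 3 was the highest for Egfl7, at 50.9 CPM, and for Cnn1, at 15.8 CPM; number 6 was the highest for Rgs5, at 277.4 CPM, and for Tagln, at 335.6 CPM; number 7 was the highest for Cspg4, at 195.8 CPM; and number 8 was the lowest for Sox18, at 6.67 CPM. WT 4 was the highest WT nerve for Pecam1, at 224.7 CPM with the next at 163.2, and Sipa1l2-/- 1 was the lowest of its group for Eng, at 51.7 CPM with the next at 73.1.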

How the results depend on the processing

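The count of vessel genes called lower with the transgene, 5, was 8 by DESeq2, 3 without C3-PMP22 7 and 8 and 2 with muscle as a covariate; within the plain number series it was 1 and within the G series 0, fits that use fewer libraries. It was 5 or 6 under the other 9 settings, among them the replicate block (5). With single libraries left out it ranged from 2 to 12: it was 2 without WT 2 or without WT 4, 3 without WT 6 or without double mutant 8, and 12 without C3-PMP22 5, and the causes were not tested. Robo4 and Tagln were called in all 32 of these fits, Esam in 29, Acta2 in 29 and Flt1 in 25. For C3-PMP22 against WT the count of 0 was 1 (Acta2) with DESeq2's size factors and 1 (Acta2) with total counts, which shift the median of all genes from 0.04 to -0.12, and 5 by DESeq2; single libraries left out gave 0 to 4, with 4 without C3-PMP22 5 and 1 without WT 1, WT 3, WT 7 or double mutant 7. For the double mutant against WT the count of 0 was 1 with only the compared groups (Robo4) and 1 in the plain series (Tagln), and against C3-PMP22 it was 1 by DESeq2 (Gja5). In the remaining comparisons the count was 0 under every setting run. No fold change of the 5 called genes changed sign. Over all genes, the 512 called with the transgene were 846 by DESeq2, 912 with the adipocyte covariate, 266 in the plain and 63 in the G series; for C3-PMP22 against WT the 106 were 375 by DESeq2. Of the 45 pairs of libraries that share a sample number in different groups, 22 had deviations correlated above 0.1. The range was -0.56 to 0.74 with a median of 0.09. Such correlations cannot decide whether the numbers pair animals, because tissue content can also make 2 libraries alike or unlike. With the replicate block the vessel counts of every comparison were those given, 5 for the transgene and 0 otherwise. Genes with few counts, such as Cnn1 and Gja5, are limited by depth and spread.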
